A study of Arabidopsis thaliana with 18 samples.

Results

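The 200 strongest array signals of developing Arabidopsis thaliana seeds are described here. On an Affymetrix array, a probe set is several short probes read together for 1 gene or for near-identical genes. Members were chosen by their measured level: they are the 200 probe sets with the highest mean log2 value over all 18 arrays, of 22746 that are not controls, which is 0.879% of them. The gene table lists 1 gene for 74 of the 200 and several genes for 9, and it does not list the other 117. Gene names and functions below therefore cover the 74, and the rest are given by counts or by probe set name. Of all 22746 probe sets, 14016 (61.6%) are listed, against 83 (41.5%) of the 200, so the named genes are an incomplete view of the most abundant transcripts.

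Each group held 3 pools of seeds. The 6 groups were C24 and Col-0, which are natural accessions with no introduced alleles or treatments in the labels, and Col-0 is the reference accession of the species. Seeds of each came from siliques (seed pods) of 8-9, 10-11 and 12-13 d after the flower opened, on plants grown with 16 h of light. A pool combined the seeds of 48 siliques, 8 from each of 6 plants, and plants from both growth experiments were in every pool. RNA came from 200 mg of whole seeds, so a transcript that is lower because fewer cells of a type are present cannot be told apart from one with less RNA per cell. The labels do not say whether pools of 1 group used different plants, and p-values cover only the spread from pool to pool.

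Titles, descriptions and characteristics name the same accession for each sample and were used to form the groups. The source name contradicts them in all 18 samples, naming Col-0 pools as C24 and C24 pools as Col-0. If the source name were right, each signed accession difference below would have the opposite sign.

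Developing seeds of this species pass from cell division and patterning into filling, when the embryo lays down storage proteins and oil. Storage globulins (cruciferins and vicilins) enter the endoplasmic reticulum, travel to the protein storage vacuole and are cut there by vacuolar processing enzymes. Oil is kept in droplets coated with oleosins, and sugar for both is supplied from the mother plant through transporters in the seed coat and endosperm.

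Tissue was checked first against marker genes. All 5 embryo and storage markers with a listed probe set, of 16 loci, were among the 200. Of 8 endosperm loci, 1 was listed, AGL62, an early endosperm regulator, and it averaged a log2 value of 3.33, near the lowest value in the table of 2.65. ALC, the 1 gene listed of 8 silique wall and leaf loci, averaged 5.82. AT3G01270, the 1 gene listed of 4 pollen and flower loci, averaged 4.74. These averages were close to the median of 5.93 over all probe sets or under it. With 1 gene measured per list, the amount of endosperm, silique wall or pollen in the pools cannot be told. Over all probe sets, Pearson's r was 0.993 to 0.997 between arrays of 1 group and 0.882 to 0.985 between arrays of 2 groups.

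The values are log2 signals made by the authors with RMA, a method that corrects background, gives all arrays nearly the same distribution and summarises each probe set. A signal depends on the probes as well as on the transcript, so the rank of a probe set is a rank of signal, not of molecules. Accession differences are likewise differences of signal, and whether the probes match both accessions equally was not tested. Array maxima lay between 14.02 and 14.32, and the value 14.26 was the maximum of 6 arrays. The 4 highest probe sets were 249082_at at a mean of 14.14, 265095_at at 14.07, 253767_at at 14.04 and 264735_s_at at 13.97. The maximum of an array was 265095_at on 12 arrays, 264735_s_at on 4 and 249082_at on 2. Only 264735_s_at is listed of these, with the genes AT1G62000, AT1G62060, AT1G62080 and AT1G62220, so its signal cannot be assigned to 1 of them. Among the 12 highest, the members with 1 gene were AT3G01570, an oleosin family gene at 13.70 and rank 6, AT5G59170, a proline-rich protein gene at 13.54 and rank 10, and AT5G38170, whose family includes lipid transfer proteins and 2S albumins, at 13.50 and rank 11.

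Below this top the levels fell off slowly. A mean at 13 or above was found for 24 of the 200, a mean between 12 and 13 for 80 and a mean under 12 for 96. The last 5 inside the set had means of 11.5132, 11.5123, 11.5114 (AT1G14950), 11.4996 and 11.4977. The first 5 outside had 11.4967, 11.4964 (AT2G01250), 11.4955 (AT5G56710), 11.4937 and 11.4931 (AT2G23090), so no gap marks the edge. A mean over all stages leaves room for large changes. In 163 of the 200 every group mean was at 11 or above, while 11 members had a group mean under 10, the lowest being 7.01. The set changed with the rule used to choose it. The 200 highest by median shared 183 with it, and the 200 highest by the mean of the C24 arrays and of the Col-0 arrays shared 192 and 185. The 200 highest at 12-13 d and the 200 highest at 8-9 d shared 99 with each other, and 84 members were among the 200 highest of every group.

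**Figure D1:**
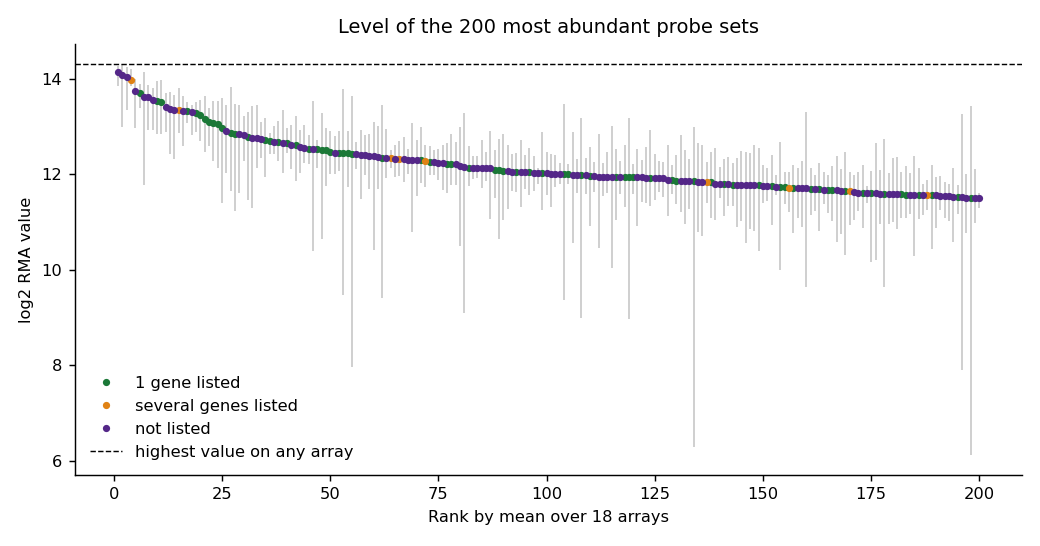
The horizontal axis gives the rank of each of the 200 probe sets by mean over 18 arrays and the vertical axis the log2 RMA value. Points are means, coloured by whether the gene table lists 1 gene, several or none, vertical lines run from the lowest to the highest array, and the dashed line is the highest value on any array, 14.32. The longest lines, down to values between 6 and 8, belong to a few members of rank 55 to 198.

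Stage calls were more frequent among the members than over all probe sets. In C24 seeds, 160 of the 200 were called between 12-13 and 8-9 d, 69 higher and 91 lower, and 40 were not called. A probe set was called when limma's p-value, adjusted over all 22746, was under 0.05, which held for 53.7% of all probe sets in this comparison. In Col-0 seeds, 166 were called, 80 higher and 86 lower, against a background of 54.2%. By direction the background was 26.2% higher and 27.5% lower in C24 and 26.6% and 27.6% in Col-0. The next 200 probe sets by level gave 166 called in C24 (83%) and 170 in Col-0 (85%), so this share was not particular to the top of the scale. The choice of members used the mean over all groups, which in this balanced design is independent of the differences between them, but a high mean limits how low a member can be in any group. Both accessions shared 65 members that rose and 82 that fell, 23 were called in neither, and the probe sets 260637_at and 245956_s_at were called in opposite directions. These joint counts were not made over all probe sets, so they cannot be read as particular to the members.

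Rises were called mostly in the first step, while falls were called in both steps. Between 10-11 and 8-9 d, 75 members rose and 73 fell in C24, with a background of 44.2% called, 20.7% higher and 23.5% lower. In Col-0, 88 rose and 49 fell, with a background of 36.9%, 16.8% higher and 20.1% lower. Between 12-13 and 10-11 d, 15 rose and 55 fell in C24, with a background of 22.1%, 9.77% higher and 12.3% lower, and 16 rose and 87 fell in Col-0, with a background of 31.3%, 14.8% higher and 16.5% lower. These splits moved with the scaling. Each array was then centred on the 2000 probe sets just under the members in level, which lowered every difference of the first step in Col-0 by 0.10. That step then gave 79 rises and 75 falls. It gave 79 and 72 on a rank scale, where ranks within each array were turned into normal scores. With the centring the second step gave 22 rises and 38 falls in C24 and 27 rises and 69 falls in Col-0. Shares over all probe sets were not counted with the centring or on the rank scale, so the backgrounds above do not apply to these counts. The most frequent path was a rise in the first step with no call in the second, found for 57 members in C24 and 61 in Col-0. A fall in both steps was found for 29 and 40, and a rise in both for 11 and 15. A fall in the first step with no call in the second was found for 42 members in C24 and 9 in Col-0. Paths were not counted over all probe sets, so these numbers describe the members only.

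The 4 storage globulin and cupin members rose in both accessions, also with the other centring and on a rank scale. AT1G03890, of the cruciferin family, had log2 values of 11.39, 11.42 and 10.66 in C24 at 8-9 d, then 13.54 to 13.65 at 10-11 d and 13.57 to 13.63 at 12-13 d. In Col-0 it had 9.80, 7.96 and 10.22 at 8-9 d, then 13.37 to 13.42 and 13.47 to 13.54. No array of 8-9 d reached the later ones, and between 12-13 and 8-9 d the difference was 2.45 in C24 (SE 0.33, adjusted p = 2.11e-06) and 4.18 in Col-0 (SE 0.33, adjusted p = 5.7e-10). PAP85, a vicilin, rose by 1.48 in C24 and 1.80 in Col-0 (SE 0.12 each), to 13.45 ± 0.03 and 13.37 ± 0.03 at 12-13 d (SD, n = 3). The vicilin-like cupin gene AT2G28490 rose by 0.99 and 1.53, and the cupin family gene AT4G36700 by 0.57 and 0.64. All 4 reached nearly their final level at 10-11 d, and none was called between 12-13 and 10-11 d in either accession.

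Both oleosin members were near the top of the scale from the first stage. AT3G01570, the oleosin family gene of rank 6, had 13.73, 13.73 and 13.66 in C24 at 8-9 d, 13.85 to 13.88 at 10-11 d and 13.70 to 13.74 at 12-13 d. In Col-0 it had 13.40, 13.50 and 13.70, then 13.73 to 13.78, then 13.53 to 13.67. First and last stage overlapped in both accessions, with differences of 0.02 in C24 (SE 0.08, adjusted p = 0.832) and 0.08 in Col-0 (SE 0.08, adjusted p = 0.412). OLEO3, an oleosin, differed by -0.05 in C24 (SE 0.07, adjusted p = 0.598) and fell by 0.35 in Col-0 (SE 0.07, adjusted p = 0.000416). The lipid droplet associated gene AT3G05500 fell by 0.37 in C24 and 0.65 in Col-0, and AT1G24360, a plastid ketoacyl reductase of fatty acid synthesis, by 0.69 and 1.07.

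All 10 cytosolic ribosomal protein members fell in both accessions, also with the other centring and on a rank scale. Their median difference between 12-13 and 8-9 d was -0.70 in C24 and -0.69 in Col-0, while the median over all 200 was -0.11 and -0.03, and over all probe sets 0.04 and 0.02. AT5G20290, of the small subunit, had 12.98, 12.90 and 12.80 in C24 at 8-9 d, 12.08 to 12.18 at 10-11 d and 11.92 to 11.98 at 12-13 d. Its Col-0 values were 12.70, 12.74 and 12.85, then 12.09 to 12.23, then 11.81 to 11.92, and in both accessions the 8-9 d arrays lay above all later ones. It fell by 0.94 in C24 (SE 0.08, adjusted p = 1.33e-09) and by 0.91 in Col-0 (SE 0.08, adjusted p = 1.94e-09). AT5G15200, also of the small subunit, fell by 0.79 and 1.02, and AT3G60245, of the large subunit, by 0.79 and 0.87. The smallest fall was that of AT3G09500, of the large subunit, at 0.27 and 0.23, and its call in Col-0 was lost without each of 4 arrays in turn (adjusted p from 0.0543 to 0.0679).

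Proteases and their inhibitors were split. BETA-VPE, a vacuolar processing enzyme of seeds, had 10.88, 10.67 and 10.32 in C24 at 8-9 d, 11.91 to 12.01 at 10-11 d and 12.28 to 12.34 at 12-13 d. In Col-0 it had 10.69, 10.65 and 10.85, then 11.76 to 12.02, then 12.20 to 12.46. It rose by 1.69 in C24 and 1.61 in Col-0 (SE 0.12 each, adjusted p = 5.05e-11 and 9.08e-11), with no overlap between the first and last stage. DELTA-VPE, a processing enzyme known from the seed coat, fell by 0.25 in C24 (adjusted p = 0.0322) and 0.54 in Col-0 (adjusted p = 6.69e-05), and the call in C24 was lost without each of 5 arrays in turn (adjusted p from 0.0585 to 0.183). The papain family gene AT3G54940 rose by 0.95 and 1.17 and the aspartic protease gene AT1G62290 by 0.80 and 0.92, while the aspartic protease APA1 differed by 0.10 and 0.14 and was called in neither. Of the 7 proteases, 4 rose, 1 fell and 2 were not called in each accession.

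The 6 members that encode protease inhibitors and small cysteine-rich proteins included opposite movers. The defensins PDF2.1 and LCR69, small secreted proteins of a family that acts against microbes, went apart. PDF2.1 had 10.04, 10.23 and 10.00 in C24 at 8-9 d and 12.51 to 12.59 at 12-13 d, and 10.58, 10.67 and 10.70 in Col-0 at 8-9 d and 12.60 to 12.68 at 12-13 d. LCR69 had 13.51, 13.52 and 13.49 in C24 at 8-9 d and 12.03 to 12.20 at 12-13 d, and 13.82, 13.66 and 13.62 in Col-0 at 8-9 d and 11.65 to 11.89 at 12-13 d. PDF2.1 rose by 2.46 in C24 (SE 0.08, adjusted p = 6.36e-16) and 1.99 in Col-0 (SE 0.08, adjusted p = 1.15e-14). LCR69 fell by 1.39 in C24 (SE 0.09, adjusted p = 2.62e-11) and 1.92 in Col-0 (SE 0.09, adjusted p = 1.16e-13). AT2G15010, of the thionin family, rose by 2.61 in C24 and 3.75 in Col-0. The trypsin inhibitor family gene AT1G47540 rose by 0.62 and 0.88.

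Among genes linked to drying and stress, 4 of 5 rose in both accessions. AT1G04560, an AWPM-19-like membrane protein gene, had 10.92, 11.00 and 10.08 in C24 at 8-9 d and 13.29 to 13.41 at the later stages. In Col-0 it had 10.34, 9.40 and 10.59 at 8-9 d and 13.13 to 13.44 later. The rise was 2.69 in C24 and 3.28 in Col-0 (SE 0.22 each, adjusted p = 9.26e-10 and 2.98e-11). TIL, a lipocalin induced by temperature, rose by 1.59 and 1.21, the desiccation-related gene AT3G62730 by 1.03 and 1.79, and the universal stress protein gene AT3G11930 by 0.46 and 1.09. AT1G51200, a zinc finger gene, was called in none of the 11 comparisons.

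**Figure D2:**
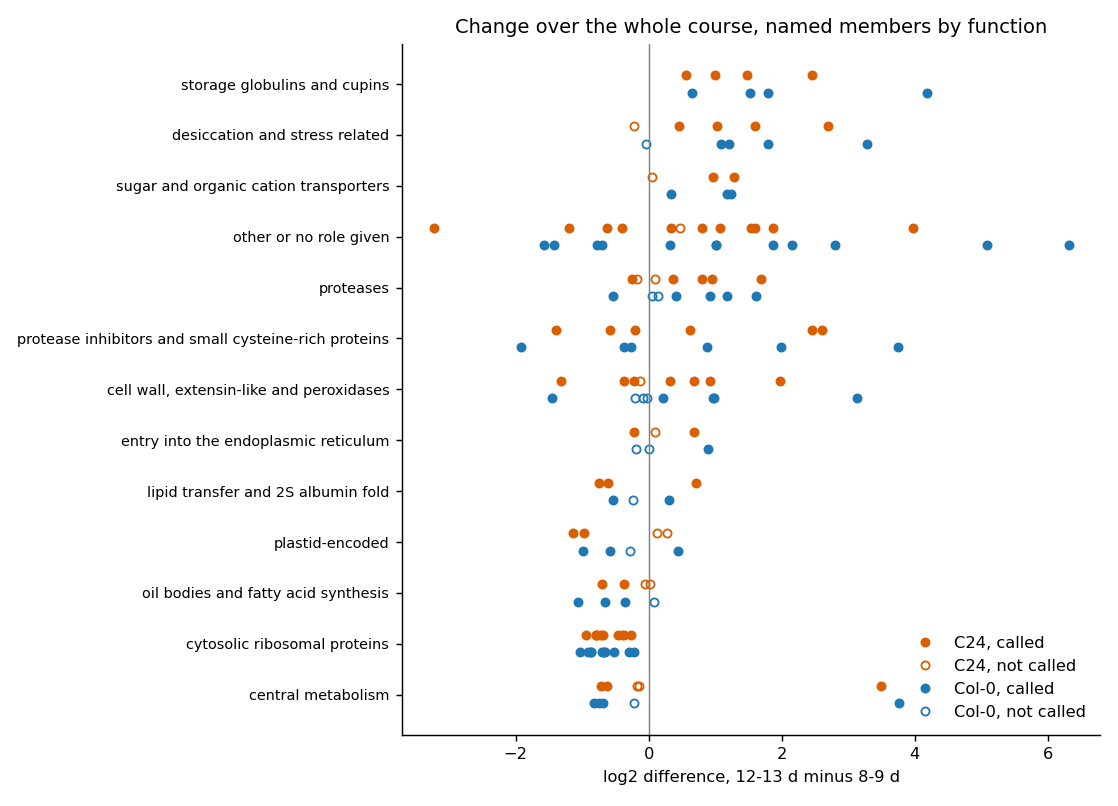
Each row is a class of the 74 members with 1 gene, and the horizontal axis is the log2 difference between 12-13 and 8-9 d. Each point is a gene, C24 above Col-0, filled where called and open where not called. The ribosomal protein row lies left of 0 with every point filled, from -1.02 to -0.23, and the storage globulin row lies right of 0.

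Of the 3 members that serve entry into the endoplasmic reticulum, AT5G60460, for the beta subunit of the Sec61 channel, rose by 0.69 in C24 and 0.89 in Col-0. The translocon-associated protein genes AT2G21160 and AT5G14030 differed by less, the first falling by 0.22 in C24 and differing by -0.20 in Col-0, where it was not called, and the second differing by 0.09 and 0.01 with no call. The C24 call of AT2G21160 was lost without each of 4 arrays in turn (adjusted p from 0.0545 to 0.117). Among the lipid transfer and albumin relatives, AT5G38170 fell by 0.75 in C24 and 0.54 in Col-0 and AT1G62500 rose by 0.72 and 0.30, the Col-0 call being lost without replicate 2 of 8-9 d (adjusted p = 0.0603).

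The 3 transporters rose in Col-0, and 2 of them in C24. SAG29, the sucrose carrier SWEET15, rose by 0.97 in C24 (adjusted p = 4.69e-09) and 1.17 in Col-0 (adjusted p = 2.01e-10). SWEET11, another sucrose carrier, rose by 0.34 in Col-0 (adjusted p = 0.00165) and differed by 0.05 in C24 (adjusted p = 0.612). OCT1, of the organic cation transporter family, rose by 1.29 and 1.24 and was the named member with the highest rise in the second step, 0.41 in C24 and 0.71 in Col-0.

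Of the 5 metabolic genes, 2 fell in C24 and 3 in Col-0, and 1 rose in both. AT1G12010, of the family that makes ethylene from its precursor ACC, had 9.72, 9.67 and 9.37 in C24 at 8-9 d, then 13.14 to 13.16 and 13.05 to 13.11. In Col-0 it had 9.56, 9.38 and 9.98, then 13.08 to 13.21 and 13.31 to 13.46. The accessions overlapped at 8-9 d, and the rise was 3.50 in C24 and 3.77 in Col-0 (SE 0.12 each, adjusted p = 7.57e-16 and 1.75e-16). The glycolytic enzyme TPI fell by 0.63 and 0.75, and cICDH, a cytosolic isocitrate dehydrogenase, by 0.72 and 0.83. SAMDC, which makes a precursor of polyamines, differed by -0.18 in C24 (adjusted p = 0.161) and -0.21 in Col-0 (adjusted p = 0.09), and it was called in none of the 11 comparisons.

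In the cell wall class, the class III peroxidase gene AT1G71695 rose by 1.98 in C24 and 3.13 in Col-0, and AT2G05790, a glycosyl hydrolase gene, by 0.92 and 0.96. AT1G23200, a pectin methylesterase gene, fell by 1.31 in C24 and 1.46 in Col-0, and in the first step by 1.18 and 1.17. In the second step it differed by -0.13 in C24 (adjusted p = 0.344) and fell by 0.29 in Col-0 (adjusted p = 0.017), a call lost with the other centring and without replicate 2 of 10-11 or 12-13 d (adjusted p from 0.0577 to 0.0742). The peroxidase PRXR1 had group means within a narrow range, from 13.17 to 13.45. It fell by 0.22 in C24 (adjusted p = 0.025) and differed by -0.08 in Col-0 (adjusted p = 0.394), and the C24 call was lost without each of 4 arrays in turn (adjusted p from 0.0512 to 0.0882). The smallest range of group means among the 200, 0.20, was that of 262676_at.

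Of the 4 members encoded by the plastid genome, 3 fell in the second step in each accession, and 2 of these in both. The genes atpB and atpE, for subunits of the chloroplast ATP synthase, were not called in the first step and fell in the second, atpE by 0.92 in C24 (adjusted p = 7.51e-07) and 0.67 in Col-0 (adjusted p = 2.44e-05). For atpB the fall was 0.80 in C24 (adjusted p = 0.0162) and 1.15 in Col-0 (adjusted p = 0.000579). Replicate 3 of Col-0 at 12-13 d was at 10.65 beside 11.91 and 11.80, and without it the fall of atpB in Col-0 was 0.75. The call in C24 was lost without replicate 1 or 3 of 10-11 d (adjusted p = 0.0963 and 0.054). The photosystem II gene psbM differed by 0.28 in C24 (adjusted p = 0.065) and rose by 0.44 in Col-0 (adjusted p = 0.00475) over the whole course. In the second step it fell by 0.44 in C24 (adjusted p = 0.0125), a call lost without replicate 2 of 10-11 d or replicate 3 of 12-13 d (adjusted p = 0.0658 and 0.0701), and it differed by -0.18 in Col-0 (adjusted p = 0.311). The photosystem I gene psaB was called in neither accession over the whole course. Its call in the second step of Col-0, a fall of 0.63 (adjusted p = 0.0493), was lost without each of 15 arrays in turn and with the other centring, and without replicate 3 of 12-13 d, which was at 10.16 beside 11.51 and 11.72, the difference was -0.15 (adjusted p = 0.406). These 4 are the plastid members among 69 listed plastid probe sets. Over the whole course, 1 of the 69 rose and 21 fell in C24, and 8 rose and 16 fell in Col-0. Calls in the second step were not counted over the 69.

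Of the members with 1 gene, AT1G14950, of the Bet v 1-like family, had the largest rise over the whole course in both accessions. It had 9.43, 9.91 and 8.97 in C24 at 8-9 d, 13.05, 13.13 and 13.02 at 10-11 d and 13.42, 13.38 and 13.42 at 12-13 d. In Col-0 it had 7.37, 6.12 and 7.55, then 12.79, 12.69 and 12.97, then 13.36, 13.33 and 13.30. It was low on every 8-9 d array and high on every later one, with a rise of 3.97 in C24 (SE 0.25, adjusted p = 1.04e-11) and 6.32 in Col-0 (SE 0.25, adjusted p = 5.16e-15). Among genes of less certain role, AT1G11170 rose by 1.87 and 2.80, AT1G54860 by 1.59 and 2.16 and AT5G55620 by 1.54 and 1.87. The gibberellin-regulated family gene AT5G59845 fell by 1.20 and 1.43. Of the unlisted probe sets, 254970_at fell by 3.16 in C24 and 3.04 in Col-0, and 263175_at rose by 3.89 and 4.69.

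One array of each accession lay low at the first stage. In 30 members that rose at least 2-fold in both accessions, replicate 3 of C24 was the lowest of its 3 pools at 8-9 d for 26, and replicate 2 of Col-0 was the lowest for 26. The widest deviation from the group mean was -0.59 for the C24 array and -1.37 for the Col-0 array. Without the Col-0 array, 160 members were called in Col-0 over the whole course, AT1G14950 rose by 5.87 and AT1G03890 by 3.50 there. Markers of the seed coat moved with stage too. All 4 measured seed coat markers, of 8 loci, fell in both accessions, and none is a member. Their mean per array lay between 9.69 and 10.03 in C24 at 8-9 d and between 7.80 and 7.92 at 12-13 d, and in Col-0 between 10.73 and 10.81 and between 7.60 and 7.87. The part of tissue makeup in the members' changes was not tested.

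Rises were smaller where the start level was higher, as the plot of start level and change shows. Of the members that began under 11, all 16 in C24 and all 23 in Col-0 rose, by up to 3.97 and 6.32. Of those that began at 13 or above, 9 of 26 rose in C24 and 8 of 25 in Col-0, by no more than 0.87 in either. Between these, members that began at 12 to 13 mostly fell, 66 of 94 in C24 and 61 of 90 in Col-0. A start level and a change from it share the same 8-9 d arrays, and the choice by the mean alone requires a member that starts low to end high, so these counts are a description. The number of probe sets with a group mean at 13 or above was 28, 40 and 45 at the 3 stages in C24 and 28, 38 and 44 in Col-0.

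**Figure D3:**
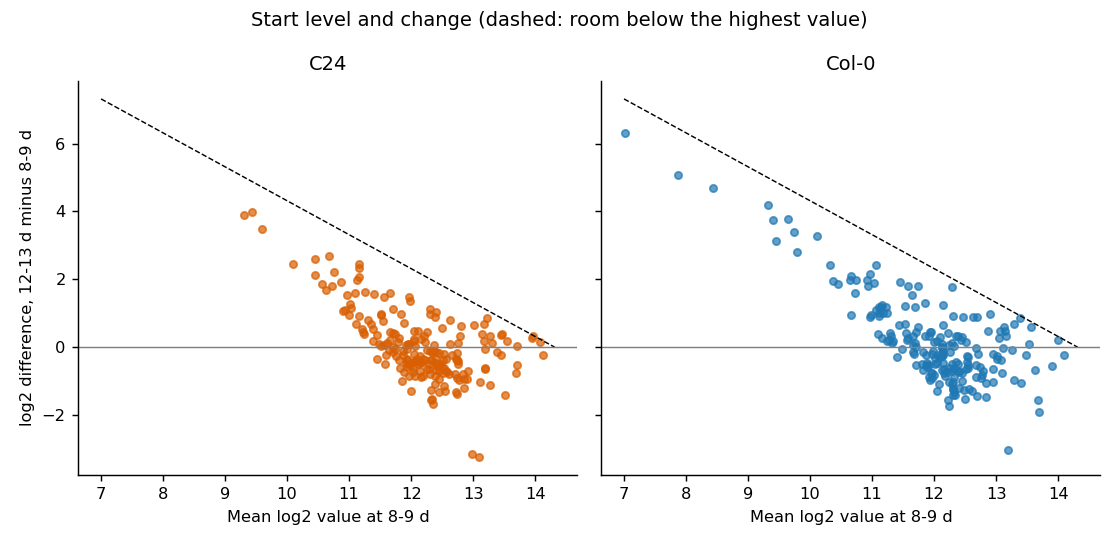
The horizontal axis is the mean log2 value at 8-9 d and the vertical axis the log2 difference between 12-13 and 8-9 d, for C24 on the left and Col-0 on the right, 1 point per member. The dashed line is the distance left to the highest value on any array, 14.32. No point can lie above the line, because no group mean can exceed the highest value on any array. The members that start at 13 or above rise by 0.87 at most.

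The arrays differed little in level at a fixed rank. The value at rank 1 of an array ranged over 0.29 between the 18 arrays, at rank 20 over 0.45 and at rank 200 over 0.11. For 249082_at the 6 group means lay between 13.99 and 14.23, and it was called in no comparison. The next in level, 265095_at, had means of 13.96, 14.28 and 14.28 in C24 at the 3 stages and of 13.38, 14.25 and 14.25 in Col-0. It rose by 0.32 in C24 and 0.87 in Col-0 over the whole course, all of it before 10-11 d. Still, beside all probe sets, the differences of the members as a set were not small. Their median absolute difference between 12-13 and 8-9 d was 0.56 in C24 and 0.67 in Col-0, against 0.28 and 0.29 over all probe sets. The tenth of all probe sets highest in level had 0.56 and 0.64, and the next 200 in level had 0.68 and 0.69, more than the members. Within the set the 50 highest had 0.43 and 0.60, and ranks 51 to 100 had 0.50 and 0.60. Ranks 101 to 150 had 0.65 and 0.86, and ranks 151 to 200 had 0.59 and 0.72. The values thus did not fall steadily toward the top. The 90th percentile was 1.60 in C24 and 1.91 in Col-0 for the members, against 1.85 and 1.90 for the next 200.

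The spread between pools was smaller as well. The median SD within a group was 0.071 for the members and 0.060 for the 50 highest, against 0.108 over all probe sets and 0.130 in the middle of the scale. A smaller spread makes a difference of a given size easier to call, and its part in the shares called was not tested. On the rank scale the members' median absolute difference over that of all probe sets was 1.79 in C24 and 1.96 in Col-0. On the log2 scale it was 1.97 and 2.29. Normal scores set a spacing of their own, wider at the ends where the members lie, so these ratios do not show the differences with spacing removed.

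Accession moved fewer members than stage, and by less. Averaged over stages, 61 members were higher in C24 and 35 lower, with 104 not called and a background of 33.3%, 20% higher and 13.3% lower. Centring on the probe sets just under the members in level gave 46 higher and 43 lower, so no lean toward C24 can be read from the counts of the stage average. At 8-9 d, 47 were higher and 12 lower in C24, with a background of 19.4%, 11.7% higher and 7.7% lower. At 10-11 d, 15 were higher and 24 lower, with a background of 17.9%, 9.92% higher and 7.99% lower. At 12-13 d, 32 were higher and 26 lower, with a background of 22%, 12.2% higher and 9.79% lower. With the same centring the split was 41 and 17 at 8-9 d, 10 and 28 at 10-11 d and 23 and 28 at 12-13 d. Shares over all probe sets were not counted with this centring, so its counts describe the members only. The next 200 in level had 58, 51 and 66 called at the 3 stages, against 59, 39 and 58 of the 200. Differences of 2-fold or more were called for 6 members at 8-9 d, all higher in C24 (background 2.19%), and for 1 at 12-13 d, lower in C24 (2.27%). At 10-11 d no member reached 2-fold (2.04%). The median absolute difference of the stage average was 0.14, against 0.10 over all probe sets.

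Control probe sets at the 3' and 5' ends of a transcript give a sign of RNA integrity. For actin the log2 value of 3' minus 5' was 0.85 ± 0.45, 0.43 ± 0.34 and -0.28 ± 0.17 in C24 at the 3 stages and 1.84 ± 0.21, 1.29 ± 0.18 and 0.93 ± 0.26 in Col-0 (SD, n = 3). For GAPDH it was 0.94, 1.44 and 1.19 in C24 and 0.89, 1.28 and 1.77 in Col-0, and for ubiquitin 0.94, 0.91 and 0.77 in C24 and 0.88, 0.52 and 0.44 in Col-0. The actin value was lower in C24 at each stage, while the ubiquitin value was higher in C24 at each stage. The GAPDH value was higher in C24 at 8-9 and 10-11 d and lower at 12-13 d. The controls thus differ in direction, and the part of RNA integrity in the accession differences was not tested.

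**Figure D4:**
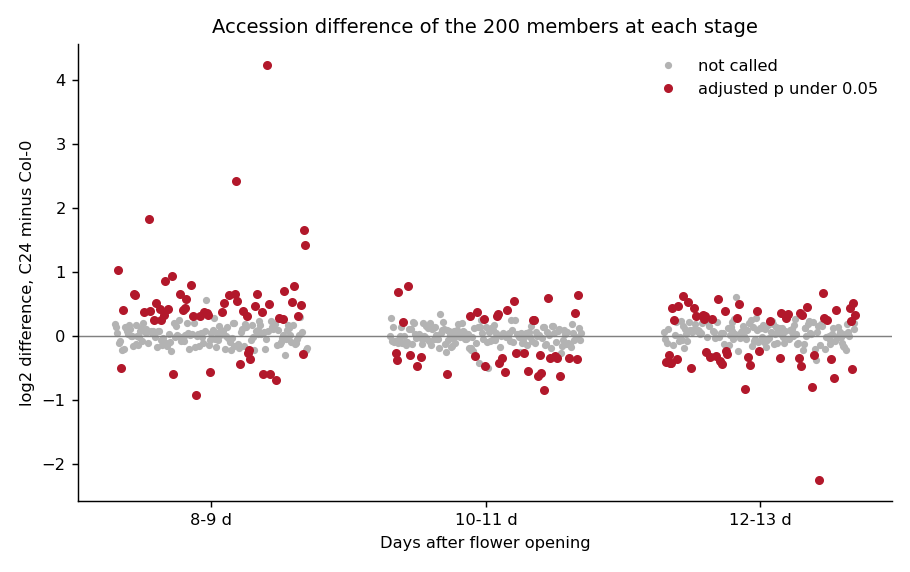
The vertical axis is the log2 difference of C24 minus Col-0 for each of the 200 members, spread sideways within each stage so that points can be seen. Dark red points were called and grey points were not. The 5 highest points, from 1.43 to 4.24, are all at 8-9 d, and the lowest, -2.25, is at 12-13 d.

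The large differences at 8-9 d were in members that later rose in Col-0. A member far down in 1 group enters the set only with high values elsewhere. The choice by the mean therefore favours this pattern, and it is given as a description. The seed coat markers AT3G50990, BAN and DFR were called lower in C24 at 8-9 d, with differences of -2.14, -0.80 and -0.68. ARA12, also a seed coat marker, differed by -0.23 and was not called (adjusted p = 0.191). Whether pools of equal days were alike in tissue makeup and in developmental stage was not tested. AT1G62210, a gene with no role given here, had 12.11, 12.32 and 11.92 in C24 at 8-9 d, against 8.55, 6.30 and 8.78 in Col-0. At 10-11 d it had 12.69, 12.76 and 12.88 in C24, against 12.76, 12.79 and 12.85 in Col-0, and at 12-13 d 12.50, 12.63 and 12.63 in C24, against 12.97, 12.90 and 12.99 in Col-0. The accessions stood apart at the first stage and overlapped at the second. C24 was higher by 4.24 at 8-9 d (SE 0.36, adjusted p = 2.38e-08), and the differences were -0.02 at 10-11 d (adjusted p = 0.979) and -0.37 at 12-13 d (adjusted p = 0.533). Without replicate 2 of Col-0 at 8-9 d the difference there was 3.45. Between 12-13 and 8-9 d AT1G62210 rose by 5.08 in Col-0 and differed by 0.47 in C24 (adjusted p = 0.293). Along chromosome 1 it lies next to AT1G62220, a gene listed for 264735_s_at, and that probe set was not called at 8-9 d, with a difference of 0.03.

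Other members with this pattern were AT1G14950, higher in C24 by 2.42 at 8-9 d (SE 0.25, adjusted p = 2.81e-07), and AT1G03890, higher by 1.83 (SE 0.33, adjusted p = 0.000405). Without replicate 2 of Col-0 at 8-9 d these were 1.97 and 1.15, and at the later stages neither was called, with differences of 0.08 to 0.25. AT2G15010 was higher by 1.03 and AT1G11170 by 0.78 at 8-9 d, also with no call later. TIL and PDF2.1 went the other way at 8-9 d, lower in C24 by 0.43 and 0.56 (adjusted p = 0.00112 and 3.44e-05).

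The peroxidase gene AT1G71695 was higher in C24 at every stage. It had 11.10, 11.40 and 10.87 in C24 at 8-9 d, against 9.71, 8.98 and 9.68 in Col-0. At 10-11 d it had 13.10 to 13.18 in C24, against 12.47 to 12.50 in Col-0, and at 12-13 d 13.07 to 13.14 in C24, against 12.49 to 12.65 in Col-0. The groups overlapped at no stage, and the differences were 1.66, 0.65 and 0.51 (adjusted p = 3.05e-08, 0.00273 and 0.0135). The last was lost without replicate 3 of Col-0 at 12-13 d, at 0.47 (adjusted p = 0.0557). The others called higher at all 3 stages were AT2G05790, by 0.49, 0.36 and 0.45, and the unlisted 263979_at and 256092_at. For AT2G05790 at 10-11 d the call was lost without replicate 1 or 2 of C24 or replicate 2 of Col-0 (adjusted p from 0.0823 to 0.106).

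Lower in C24 at all 3 stages were 6 members, of which 4 have 1 gene. Calls at all 3 stages, higher or lower, were not counted over all probe sets. AT1G62070, with no role given here, had 13.10, 13.02 and 13.16 in C24 at 8-9 d, against 13.69, 13.57 and 13.78 in Col-0. At 10-11 d it had 12.52, 12.36 and 12.70 in C24, against 13.30, 13.47 and 13.34 in Col-0, and at 12-13 d 9.47, 10.16 and 9.97 in C24, against 12.32, 12.06 and 11.97 in Col-0. The groups overlapped at no stage, with differences of -0.59, -0.85 and -2.25 (adjusted p = 0.00361, 0.000112 and 1.04e-10). It fell by 3.23 in C24 and 1.57 in Col-0 over the whole course. AT1G62070 lies between AT1G62060 and AT1G62080 on chromosome 1, and both of these are listed for 264735_s_at, whose difference was 0.01 at 12-13 d.

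Protease inhibitors were among the others. AT5G47550, a cystatin that blocks papain-like proteases, had 12.45, 12.66 and 12.38 in C24 at 8-9 d, against 13.03, 13.21 and 13.01 in Col-0. At 12-13 d it had 11.85, 11.85 and 12.05 in C24, against 12.69, 12.72 and 12.73 in Col-0. The groups did not overlap, and the differences were -0.59, -0.62 and -0.80 at the 3 stages (adjusted p = 6.51e-05, 3.45e-05 and 1.15e-06). AT2G38870, of the potato inhibitor I family, was lower in C24 by 0.50, 0.26 and 0.43. AT3G63040, which is outside the inhibitor class, was lower by 0.36, 0.26 and 0.34. At 10-11 d the call of AT2G38870 was lost without each of 4 arrays in turn (adjusted p from 0.0662 to 0.0883), and the call of AT3G63040 was lost without each of 5 arrays in turn (adjusted p from 0.0708 to 0.113).

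AT5G38160 and AT5G38170, neighbours on chromosome 5 in the family of lipid transfer proteins and 2S albumins, were both lower in C24. AT5G38160 had 12.46, 12.79 and 12.51 in C24 at 12-13 d, against 13.30, 13.14 and 13.29 in Col-0, and AT5G38170 had 12.84, 13.03 and 12.95, against 13.38, 13.23 and 13.49. Neither pair of groups overlapped. Averaged over stages the differences were -0.52 (SE 0.06, adjusted p = 4.64e-07) and -0.34 (SE 0.05, adjusted p = 7.39e-06). At 8-9 d they were -0.29 and -0.22 and not called (adjusted p = 0.0523 and 0.0653).

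All 4 storage globulins and cupins were higher in C24 at 8-9 d, also with the other centring, and none was called at 10-11 or 12-13 d. The differences at 8-9 d were 1.83 for AT1G03890, 0.66 for AT2G28490 (adjusted p = 0.000389), 0.39 for PAP85 (adjusted p = 0.025) and 0.36 for AT4G36700 (adjusted p = 0.0161). The calls of PAP85 and AT4G36700 were lost without each of 3 and 4 arrays in turn (adjusted p from 0.0661 to 0.197), and PAP85 was at 0.23 without replicate 2 of Col-0. In the average of the stages 3 of the 4 were higher in C24, namely AT1G03890 by 0.71, AT2G28490 by 0.31 and AT4G36700 by 0.30, and PAP85 differed by 0.16 (adjusted p = 0.0883). With the other centring it was again 3 of the 4. Of the 4 oil members, 3 were higher, namely OLEO3 by 0.29, AT1G24360 by 0.17 and AT3G01570 by 0.13, but with the other centring this was 1, OLEO3. The calls of AT1G24360 and AT3G01570 were also lost without each of 5 and 10 arrays in turn (adjusted p from 0.0504 to 0.0803). For OLEO3 the difference was 0.47 at 12-13 d (SE 0.07, adjusted p = 6.94e-05), with 13.16, 13.16 and 13.11 in C24, against 12.60, 12.70 and 12.71 in Col-0, which did not overlap. Its call at 10-11 d, at 0.23 (adjusted p = 0.0367), was lost with the other centring (adjusted p = 0.0818) and without each of 5 arrays in turn (adjusted p from 0.0581 to 0.118). In contrast, 1 of the 10 ribosomal proteins was called in the average, AT2G34480 at 0.16, a call lost without each of 5 arrays in turn (adjusted p from 0.0544 to 0.0595), while with the other centring 1 was called, lower in C24. GAPC2, a cytosolic glycolytic enzyme, was higher in C24 by 0.58 at 12-13 d, with 12.19, 12.22 and 12.17 in C24, against 11.73, 11.51 and 11.57 in Col-0. None of the 4 plastid members was called in the average (adjusted p from 0.0616 to 0.475), though 2 were called lower with the other centring, while 7 of the 69 plastid probe sets were higher and 38 lower in C24.

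**Figure D5:**
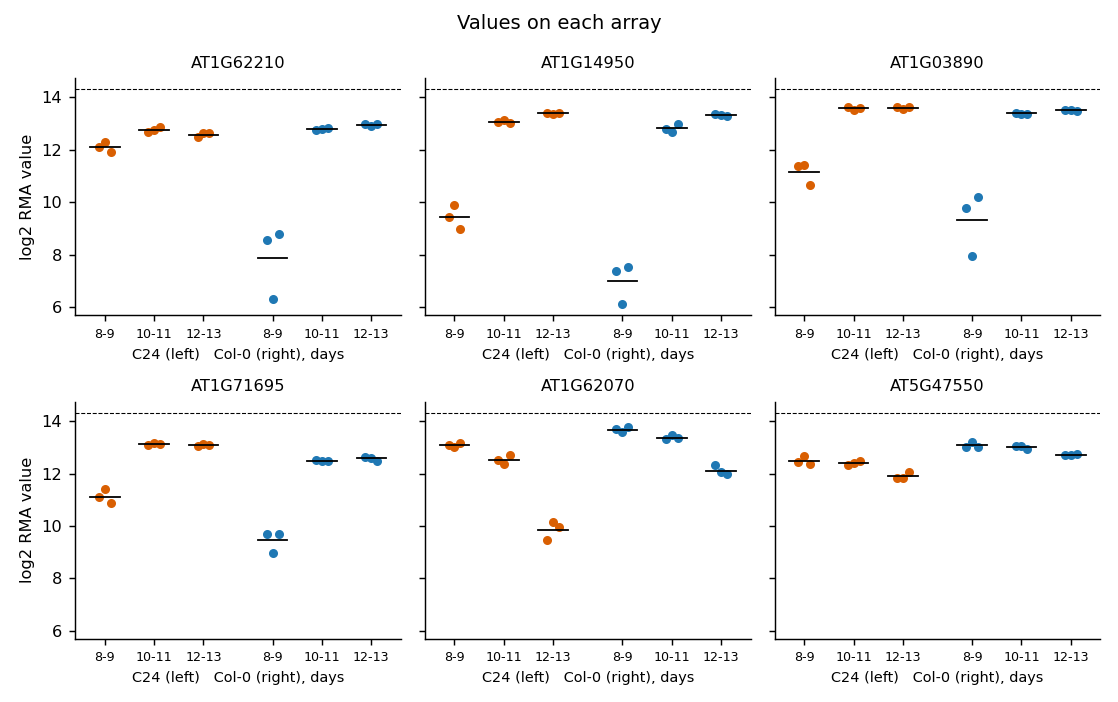
Each panel shows 1 gene, with C24 on the left and Col-0 on the right at 8-9, 10-11 and 12-13 d on the horizontal axis and the log2 RMA value of each array on the vertical axis. Bars are means of 3 arrays, and the dashed line is the highest value on any array. AT1G62210, AT1G14950, AT1G03890 and AT1G71695 are lower in Col-0 at 8-9 d than in C24, AT1G62070 is lowest in C24 at 12-13 d, and AT5G47550 is lower in C24 throughout.

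The stage change itself differed between accessions for 34 members, 13 with a higher and 21 with a lower change in C24, with a background of 9.14%, 3.96% higher and 5.19% lower. The next 200 in level had 22. AT1G62210 had the lowest interaction of all 22746 probe sets, -4.61 (SE 0.51, adjusted p = 3.51e-06), from a change of 0.47 in C24 and 5.08 in Col-0. AT1G14950 had -2.34 (SE 0.35, adjusted p = 0.000105), and AT1G03890 had -1.73 (SE 0.47, adjusted p = 0.0237), which was -1.04 without replicate 2 of Col-0 at 8-9 d. The call of AT1G03890 was lost without replicate 1 or 2 of C24 at 8-9 d (adjusted p = 0.0587 and 0.0634). These 3 began lower in Col-0 and ended within 0.37 of C24. Both accessions were then at 12.59 or above, a high end that the choice by the mean favours for members with a low start. AT1G62070 had -1.66 (SE 0.19, adjusted p = 5.39e-06). It differs from these 3 in that its gap was widest at the last stage, where it averaged 9.86 in C24 and 12.11 in Col-0. Higher changes in C24 were 0.55 for GAPC2, 0.52 for LCR69 and 0.47 for PDF2.1 (adjusted p = 0.00868, 0.012 and 0.0109).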

How the data were processed

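RNA of 18 seed pools was hybridised to an Affymetrix array of 22810 probe sets. The deposited values are log2 signals from RMA, run by the authors per the submitters' processing notes (no version is given in the sources used here). Because RMA aligns the arrays, it hides any shift shared by most transcripts. Without the 64 control probe sets, limma 3.58.1 (R 4.3.3) fitted a mean for each of 6 groups on the 18 arrays, with moderated variances (eBayes) and Benjamini-Hochberg adjustment over 22746 probe sets in each of 11 comparisons. SE is the standard error of a log2 difference. An array has no read depth, and the number of arrays limits the precision. Scripts were tested on simulated data.

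The members and lists were chosen with earlier results of these data known. Classes were assigned to named genes by locus, by hand, because the tables hold no gene descriptions. Genes were named where a probe set has 1 gene: the 12 highest members, the 5 on either side of the edge, up to 8 called at each end of a whole-course comparison, 6 of an accession comparison, 5 of the interaction and 4 of a step, the 8 steadiest, 2 or more per class, and all storage and oil members. Promoter motifs were not analysed here. Equal replicate numbers did not pair the arrays: deviations from group means correlated at -0.156 to 0.242 over 45 pairs. Alternatives were a replicate block, leaving out each array, a variance trend, dim probe sets left out, another centring, ranks, fits to the groups compared, and other sizes and choices of the set.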

Additional observations from a re-analysis of the deposited data

Results flagged for a closer look

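The change between 8-9 and 12-13 d differed between C24 and Col-0 for 34 of the 200 members by the interaction term of the limma fit. The background was 9.14% of all probe sets, and 22 of the next 200 in level were called. Among those with 1 gene, the change was higher in C24 by 0.55 for GAPC2, 0.52 for LCR69 and 0.47 for PDF2.1. The change was lower in C24, at -4.61 for AT1G62210, -2.34 for AT1G14950, -1.73 for AT1G03890, -1.66 for AT1G62070 and -1.15 for AT1G71695. For AT1G03890 it was -1.04 without replicate 2 of Col-0 at 8-9 d. The choice by the mean favours members that start low in 1 group and end high. The call of AT1G03890 was lost without replicate 1 or 2 of C24 at 8-9 d (adjusted p = 0.0587 and 0.0634).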

How the results depend on the processing

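Of 126 counts and ratios under settings other than leaving out an array, 125 stayed within 1.5 times, the exception being the size of the members' differences over that of all probe sets in Col-0, which was 1.43 at the 90th percentile, against 2.29 at the median. Of 198 counts without 1 array, 196 stayed within 1.5 times. The exceptions were the 39 members called between accessions at 10-11 d, which were 24 without replicate 2 of C24 and 25 without replicate 2 of Col-0, in a range of 24 to 40. The other ranges without 1 array were 42 to 60 at 8-9 d, 40 to 60 at 12-13 d and 84 to 95 for the stage average. In C24 they were 153 to 161 for the whole course, 136 to 151 for the first step and 49 to 72 for the second, in Col-0 160 to 169, 124 to 142 and 79 to 106, and for the interaction 24 to 40. Of 2520 values of 33 named genes, none changed sign, 2487 stayed on the same side of the threshold and 33 lost the call. AT5G55620 and PDF2.1 at 10-11 d between accessions, and AT2G15010 in the second step of Col-0, lost it without single arrays (adjusted p from 0.0649 to 0.163), and PDF2.1 also with the other centring (0.0516). With replicate number as a block, 56, 39, 59 and 95 members were called between accessions at the 3 stages and in their average, 160, 148 and 67 in C24, 166, 136 and 103 in Col-0 and 33 in the interaction, and no named call was lost, while the numbers did not pair the arrays.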
